A study of Mus musculus with 8 samples.

Results

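The 10 genes described here, of lipid droplet coating, droplet fusion and triglyceride hydrolysis, were measured in mouse liver after virus-driven expression of ATF3. They were the CIDE genes Cidea, Cideb and Cidec, the perilipin genes Plin2, Plin3, Plin4 and Plin5, the lipase gene Pnpla2, and G0s2 and Hilpda, which encode inhibitors of that lipase. They were taken by name from the deposited table of normalized values, 10 genes of 24972 listed, and were chosen by function with their normalized values and differences between these same groups already known. Their own differences between the groups are therefore given as a description, without p-values, and support nothing. C57BL/6J mice were injected into a vein at 10 weeks of age with adeno-associated virus of serotype 8, either AAV8-ALB-ATF3 (ATF3 group) or AAV8-ALB-Null, the empty control virus (Null group). Livers were taken 8 weeks later, at 18 weeks of age, and total RNA was sequenced from 4 libraries per group, 8 in all. All mice of either group thus received a virus of the same serotype. The label ALB is read here as the promoter of albumin, a gene of hepatocytes. The design text names 8 mice per group, and nothing says whether a library came from a single mouse or from a pool, so the spread given here is between libraries and may be partly technical. ATF3 is a stress-induced transcription factor of the basic leucine zipper class, and the study's title names the identification of liver genes that it regulates.

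A lipid droplet is a core of triglyceride and cholesteryl ester under a phospholipid monolayer, onto which perilipins and CIDE proteins attach. CIDE proteins gather where droplets touch and let lipid pass from the smaller droplet to the larger, so that large droplets form, and in hepatocytes Cideb also serves the loading of lipid onto very low density lipoprotein. Perilipins shield the core from lipases. Adipose triglyceride lipase, the product of Pnpla2, cleaves a fatty acid from triglyceride, with Abhd5 as its coactivator and G0s2 and Hilpda as its inhibitors. In lean liver Plin2 is the main droplet coat, and Cidea and Cidec are known as genes that are low in lean and high in fatty liver.

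Promoter sequences of the genes on which the results turn were taken from RefSeq (GRCm38.p6, the mm10 assembly), each 300 bases long, from 250 before to 50 after an annotated start. Of the 10 genes, 9 had a promoter considered here, in 12 windows, since Cidec, Plin5 and Hilpda each have a pair of annotated starts. Windows are written 5′ to 3′ along the gene. Capitals mark the AP-1 heptamer TGANTCA and the letters CCAAT on either strand, the marked motifs found in the windows printed here. Cidec is shown with both of its windows because it had by far the largest difference between the groups. Its starts lie 996 bases apart, and because the files give a value per gene, transcripts from either start cannot be told apart.
Cidec, chr6:113435711-113436010, minus strand: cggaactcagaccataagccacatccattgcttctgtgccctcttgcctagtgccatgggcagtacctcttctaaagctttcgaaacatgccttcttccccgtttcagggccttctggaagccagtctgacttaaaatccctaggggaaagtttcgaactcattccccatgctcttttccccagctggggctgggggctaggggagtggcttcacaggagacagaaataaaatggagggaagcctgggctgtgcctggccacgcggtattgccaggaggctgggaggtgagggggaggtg
Cidec, chr6:113434715-113435014, minus strand: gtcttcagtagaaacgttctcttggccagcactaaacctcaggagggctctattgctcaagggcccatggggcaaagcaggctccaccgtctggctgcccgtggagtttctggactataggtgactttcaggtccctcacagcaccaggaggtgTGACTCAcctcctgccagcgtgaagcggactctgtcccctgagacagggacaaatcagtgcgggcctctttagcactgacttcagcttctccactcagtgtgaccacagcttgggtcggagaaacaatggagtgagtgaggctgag
The perilipin windows are shown because Plin3, Plin4 and Plin5 lie close together on chromosome 17 and differed in direction.
Plin3, chr17:56290462-56290761, minus strand: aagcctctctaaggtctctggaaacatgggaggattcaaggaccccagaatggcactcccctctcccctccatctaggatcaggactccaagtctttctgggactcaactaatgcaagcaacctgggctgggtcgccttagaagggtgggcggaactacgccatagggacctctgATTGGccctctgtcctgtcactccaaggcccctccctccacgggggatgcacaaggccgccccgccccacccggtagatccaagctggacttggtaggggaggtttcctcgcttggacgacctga
Plin4, chr17:56109733-56110032, minus strand: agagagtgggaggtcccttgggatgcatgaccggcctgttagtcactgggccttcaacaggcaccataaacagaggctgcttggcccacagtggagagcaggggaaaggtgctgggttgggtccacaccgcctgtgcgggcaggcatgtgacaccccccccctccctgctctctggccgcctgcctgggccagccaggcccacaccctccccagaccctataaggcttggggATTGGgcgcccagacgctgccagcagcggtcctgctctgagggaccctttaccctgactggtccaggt
Plin5, chr17:56117499-56117798, minus strand: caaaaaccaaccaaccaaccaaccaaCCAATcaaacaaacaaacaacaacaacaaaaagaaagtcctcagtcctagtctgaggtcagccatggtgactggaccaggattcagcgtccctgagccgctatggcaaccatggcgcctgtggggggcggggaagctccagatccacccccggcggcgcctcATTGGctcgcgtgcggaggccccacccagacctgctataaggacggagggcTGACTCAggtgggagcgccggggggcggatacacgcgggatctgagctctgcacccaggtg

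The heptamer TGANTCA was found in the downstream Cidec window, 96 bases before the start, and in the upstream Plin5 window, 11 bases before the start. It was also found in the Cideb window and in both overlapping Hilpda windows, where it is the same copy. Of all 32851 RefSeq promoter windows of this length, 7.81% hold it on either strand. The full site TGACGTCA was in none of the 12 windows and in 1.79% of all windows. Its shorter form TGACG, which is contained in the full site, was in the G0s2 window and in both Hilpda windows, and in 20.8% of all. The composite letters TGATGNAAN were in none of the 12 windows (3.95% of all), nor was the PPAR direct repeat, which is AGGTCA, any 1 base and AGGTCA again (0.0396% of all). A lone AGGTCA was in the Plin2 window and in both Plin5 windows (16.3% of all). The letters CACGTG lay 4 bases before the Plin2 start (7.15% of all) and contain ACGTG, the core letters of hypoxia elements, which were also in a Hilpda window (19.6% of all). The Cideb window held TATAAA (13.6% of all), and CCAAT was in the windows of Plin2, Plin3 and Plin4 and in a Plin5 window (37.4% of all). These are matches of letters within short windows and were not tied to any expression value.

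Among the libraries, the normalized values summed to between 23919000 and 28446000. Atf3 lay between 20.3 and 24.5 in Null libraries and between 5611.5 and 7053 in ATF3 libraries, so every library matched its label; transcripts of the delivered and the native gene cannot be told apart. Null 4 stood apart from the other libraries on the second principal component (16.7% of the variance). For 7 of the 9 tested genes of this set it was above or below all other Null libraries. Such end places were also common elsewhere. Null 1 was the lowest Null library for 4 of the 9 genes and the highest for 2. ATF3 4 was the lowest ATF3 library for 1 and the highest for 5. The count of 7 alone thus does not set Null 4 apart. For its place on the second principal component, the log2 change without Null 4 is given beside that of each of the 9 tested genes. The hepatocyte markers Alb, Ttr, Apob, Hnf4a, Cps1, Tat, Asgr1 and Tdo2 were present in every library, and of these Ttr and Tat rose and Cps1 and Tdo2 fell. Adipocytes are the cells in which Cidec, Plin4, Pnpla2 and G0s2 are most abundant. Of their markers, Cfd was 182 in Null 3 and 7.44 to 8.64 in the other Null libraries, and at 1.23 to 6.60 in ATF3 it lay under every Null library. Adipoq was 38.7 in Null 3 and at most 4.49 in the other libraries, Plin1 was 21.1 in Null 3 and at most 1.12 elsewhere, and Lep was at 0 outside Null 3, where it was 1.52. The 8 adipocyte markers summed to 649 to 1106 in Null and 466 to 643 in ATF3, and most of that sum came from Lipe, Fabp4 and Adrb3, of which Lipe and Fabp4 also stand in pathway lists below. Of the 5 brown adipocyte markers, Ucp1 was at 0 in all libraries. The list's sum, 4728 to 6206 in Null and 2509 to 3486 in ATF3, came mostly from Elovl3 and Ppargc1b, which hepatocytes express too. Elovl3, Ppargc1b and Cox7a1 each fell, and Cox7a1 was at 15.4 to 26.9 in Null and 2.12 to 10.4 in ATF3. The adipocyte and the brown adipocyte sums were each lower in all 4 ATF3 libraries (exact two-sided permutation test, p = 0.0286, the smallest this design allows; adjusted p = 0.129 over 9 marker lists). Their part in the differences below was not tested. The 6 skeletal muscle markers summed to at most 3.39 in any library. Sums of stellate, Kupffer, endothelial, cholangiocyte and lymphocyte markers overlapped between the groups (adjusted p from 0.257 to 0.707, same test).

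Of the 10 genes, 9 passed the filter (a normalized value of at least 10 in at least 4 libraries), and all 9 reached that value in every library. In the limma fit over all 13301 genes tested, in which 21.2% were called in either direction, 3 of the 9 were called higher in ATF3 at an adjusted p under 0.05, namely Cidec, Plin2 and Plin3, where 11.4% of all tested genes were called higher. Plin4 was the 1 gene called lower, where 9.82% of all were. The same 4 genes were those whose groups did not overlap, which held for 26.3% of all tested genes. The median log2 change was 0.52 over the 9 genes and 0.01 over all tested genes. Cideb, Plin5, G0s2, Pnpla2 and Hilpda were not called. Nothing is read from these counts, since the genes were chosen with the comparison known. With the deposited TPM in place of the normalized values, the calls of Plin2, Plin3 and Plin4 were lost and that of Cidec was kept, but there the median over all genes moved to 0.68, and a single row, Mir6236, held from 0.308 to 89.4% of a library's TPM. With that TPM rescaled by the median of ratios, the calls of Cidec, Plin2, Plin3 and Plin4 were all kept.

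**Figure D1:**
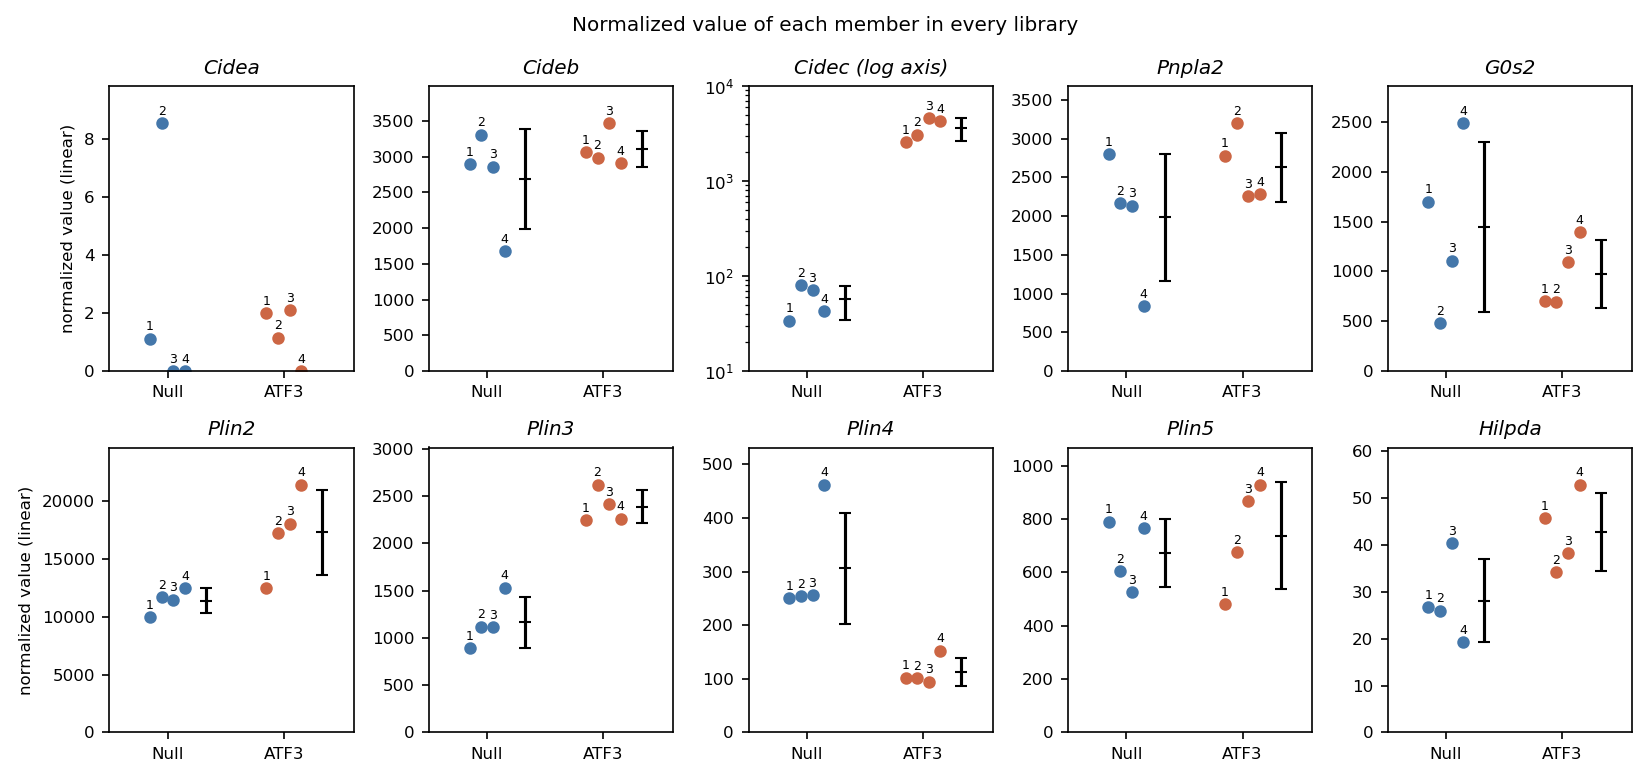
Normalized value of each of the 10 genes in every library (points, numbered by library) for Null (blue) and ATF3 (red), with the mean and SD of 4 libraries beside them, except for Cidea; axes are linear from 0 apart from Cidec, which has a log axis. Cidec is the gene whose groups lie farthest apart, at most 79.4 in Null and at least 2557 in ATF3, and Null 4 is the lowest Null library for Cideb, Pnpla2 and Hilpda and the highest for Plin2, Plin3, Plin4 and G0s2.

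Cidec, also known as FSP27, forms large droplets in fat cells and in steatotic hepatocytes. Its normalized values were 33.8, 79.4, 71.0 and 42.4 across Null 1 to 4 and 2557, 3075, 4591 and 4289.6 across ATF3 1 to 4. The lowest ATF3 library thus lay far above the highest Null library, and ATF3 1 was the lowest of its group. The ratio of group means was 64.1 and the log2 change 6.02 (SE 0.28). It was 5.91 without Null 4, and 5.17 on TPM rescaled by the median of ratios. The deposited TPM of Cidec in Null is low (median 1.56), and the 1 added before the logarithm shrinks such a change. Cidec ranked 13 among all tested genes by size of rise. The 8 adipocyte markers summed to at most 643 in ATF3 libraries and at least 649 in Null libraries, mostly from Lipe, Fabp4 and Adrb3. In the ATF3 libraries Lipe was at 279 to 368, Fabp4 at 145 to 163, Adrb3 at 33.5 to 108 and Cfd at 1.23 to 6.60. Adipoq, Plin1, Lep and Retn were at most 4.49 there. Null 3, which had the highest adipocyte sum, had 71.0 of Cidec. Whether adipocyte RNA had a part in the Cidec values was not tested. No stretch of 31 bases of Cidec transcripts occurs in transcripts of other genes in GENCODE vM21. Among the other called genes, the share of such stretches found in other genes is 5.16% for Plin2, 2.96% for Plin3 and 0% for Plin4. Whether shared reads had a part in the Plin2 and Plin3 values was not tested. For Cidec itself, the position is as follows. Cidec lies on chromosome 6 from 113424634 to 113435760 (mm10, minus strand), with 1856 exonic bases.

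Cideb is the CIDE gene that hepatocytes express in the lean state. Its values were 2897, 3307, 2863 and 1677 across Null 1 to 4 and 3061, 2984, 3470 and 2913 across ATF3 1 to 4. The groups overlapped, and Null 4 alone lay well under the rest. The log2 change was 0.25 (SE 0.19, 95% interval -0.16 to 0.66) with all libraries and 0.04 without Null 4. In GENCODE vM21, 76.3% of the exonic bases of Cideb (chromosome 14, 55754050 to 55758458, minus strand) are also exonic in Nop9 on the opposite strand. The library kit marks strand, but whether the counting used it is not given in the sources used here, so reads of these genes may be mixed. Nop9 itself was listed at a mean of 428.

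Cidea, an activator of droplet growth in brown fat that also appears in fatty liver, did not pass the filter. It was listed at 1.12, 8.54, 0 and 0 across Null 1 to 4 and at 1.99, 1.14, 2.10 and 0 across ATF3 1 to 4. All 8 values lie under 10, and no comparison was made. Cidec and Cidea are thus not alike in level in the ATF3 libraries.

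Levels of different genes can be compared per unit of length within a library, for which the deposited TPM values (transcript abundance scaled by length) were used. Shares and ratios within a library do not depend on how much of the TPM other rows hold. Of the summed TPM of the 3 CIDE genes, Cideb held 98.3 to 99.2% in Null libraries and 52.2 to 65.7% in ATF3 libraries. Cidec held 0.724, 1.47, 1.53 and 1.57% across Null 1 to 4 and 34.2, 39.1, 45.2 and 47.8% across ATF3 1 to 4. The groups did not overlap, and by TPM Cideb stayed the larger part in all 8 libraries. That order depends on the measure. By normalized value, which is not scaled by length, Cidec was under Cideb in ATF3 1 (2557 against 3061.5). It was above Cideb in ATF3 2 (3075 against 2984), ATF3 3 (4591 against 3470) and ATF3 4 (4289.6 against 2913). The Cideb part may also hold reads of Nop9, as given above. By TPM, Cidec ranked from place 7 to place 9 among the 10 genes in Null libraries and was in place 3, behind Plin2 and Cideb, in all 4 ATF3 libraries.

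**Figure D2:**
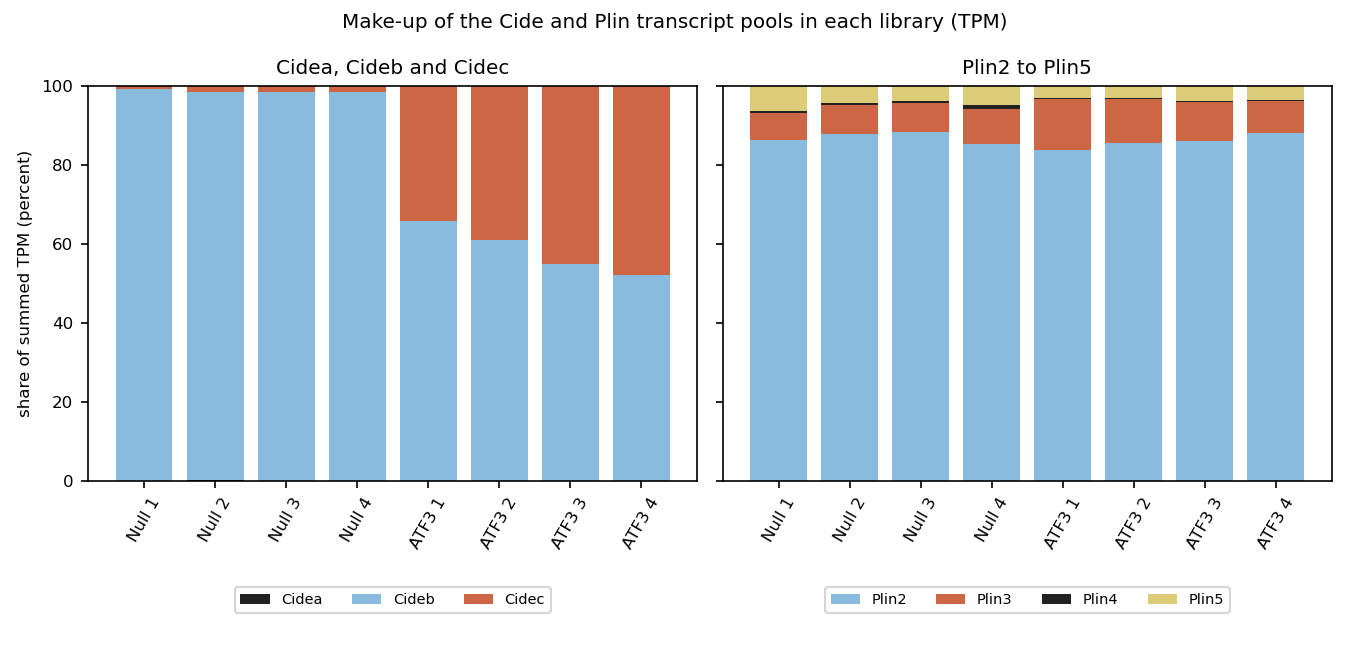
Share of each gene in the summed TPM of Cidea, Cideb and Cidec (left) and of Plin2 to Plin5 (right), in percent, as stacked bars for each of the 8 libraries. Cidec makes up at most 1.57% of the CIDE pool in Null libraries and 34.2 to 47.8% in ATF3 libraries, and Plin2 makes up 83.7 to 88.3% of the perilipin pool in all libraries.

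Plin2, the main perilipin of hepatocyte droplets, was the most abundant of the 10 genes per length in every library. Its normalized values were 9955, 11689, 11494 and 12492 across Null 1 to 4 and 12509, 17226, 18065 and 21452 across ATF3 1 to 4. The groups were parted by a narrow margin, since ATF3 1 lay just over Null 4. The log2 change was 0.58 (SE 0.16), a ratio of means of 1.52, and it was 0.63 without Null 4. The call was lost on leaving out any of 5 of the 8 libraries, although the log2 change moved little, namely without Null 1 (log2 change 0.52), Null 3 (0.59), ATF3 2 (0.57), ATF3 3 (0.55) or ATF3 4 (0.47).

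Plin3, known as TIP47, moves from the cytosol onto young droplets. For Plin3 the values were 893, 1117, 1113 and 1529 across Null 1 to 4 and 2247, 2620, 2411 and 2261 across ATF3 1 to 4. Every ATF3 library was above every Null library, and Null 4 was the highest Null library. Its log2 change of 1.06 (SE 0.15), a ratio of means of 2.05, became 1.20 without Null 4. Plin3 held 6.74 to 9.08% of the perilipin TPM in Null and 8.10 to 13.1% in ATF3, and these shares overlapped.

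Plin4, a coat protein of small droplets that is most abundant in fat cells, was lower. Its values were 251, 255, 256 and 462 across Null 1 to 4 and 102, 101, 94.7 and 153 across ATF3 1 to 4. The ATF3 libraries all lay under the lowest Null library. Plin4 had a log2 change of -1.41 (SE 0.23), and the Null mean was 2.72 times the ATF3 mean. Null 4 was far above the other Null libraries, and without it the log2 change was -1.19. On TPM rescaled by the median of ratios it was -0.74. The deposited TPM of Plin4 is low (median 1.75 in Null and 0.877 in ATF3), and the 1 added before the logarithm shrinks such changes. Plin4 held 0.553 to 0.909% of the perilipin TPM in Null and 0.131 to 0.197% in ATF3, with no overlap. The adipocyte marker sum was also lower in ATF3, and Null 3, the library with most Adipoq and Plin1, had 256 of Plin4, next to 251 and 255 in Null 1 and Null 2. Whether adipocyte RNA had a part in the Plin4 values was not tested.

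Plin5, which joins droplets to mitochondria and binds Pnpla2 and Abhd5, did not differ beyond its spread. Its values were 790, 604, 526 and 766 across Null 1 to 4 and 481, 676, 867 and 929 across ATF3 1 to 4, so that the ATF3 libraries spanned the whole Null range and passed it at both ends. Its log2 change was 0.11 (SE 0.21, 95% interval -0.36 to 0.58), and it was 0.18 without Null 4 and -0.01 without ATF3 4.

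Plin4, Plin5 and Plin3 lie in this order within 192283 bases of chromosome 17, all on the minus strand. Plin4 (56100591 to 56109803) ends 1797 bases before Plin5 (56111601 to 56117596), and Plin3 (56277476 to 56292873) lies 159879 bases beyond Plin5. Neighbours in this stretch thus ranged from -1.41 for Plin4 over 0.11 for Plin5 to 1.06 for Plin3. Of the 7 other tested genes between Plin5 and Plin3, which were examined after the values of the perilipins were seen, Sema6b fell by 0.60 (limma, adjusted p = 0.0299) and Tnfaip8l1 rose by 0.64 (limma, adjusted p = 0.00114). The remaining 5 were Lrg1, Mydgf, Dpp9, Fem1a and Ticam1, between -0.22 and 0.05 and not called.

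**Figure D3:**
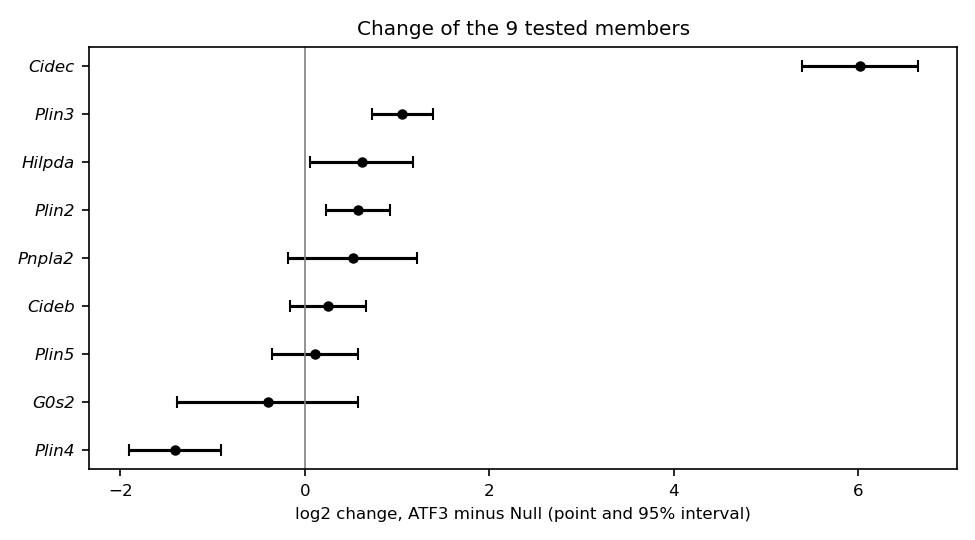
Log2 change of the 9 tested genes, ATF3 minus Null, with 95% intervals from the limma fit over 4 libraries per group. Cidec at 6.02 stands far to the right of Plin3 at 1.06 and the others, and Plin4 at -1.41 is the lowest.

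Pnpla2, the lipase gene, was at 2799, 2170.5, 2133 and 839 across Null 1 to 4 and at 2779, 3200, 2258 and 2287 across ATF3 1 to 4. The groups overlapped, with Null 4 far under all other libraries. The log2 change was 0.52 (SE 0.32, 95% interval -0.18 to 1.22), and it was 0.15 without Null 4. G0s2, which binds the lipase and blocks it, was at 1700.5, 483, 1109 and 2489 across Null 1 to 4 and at 699, 697, 1094 and 1396 across ATF3 1 to 4. It varied widely among Null libraries, from 483 to 2489, and all 4 ATF3 libraries lay within that range. The log2 change of G0s2 was -0.40 (SE 0.44, 95% interval -1.38 to 0.58), and on leaving out 1 library it ran from -0.85 without Null 2 to -0.06 without Null 4. Its sign turned with library weights (0.30) and with unscaled TPM (0.59), so no direction is given for G0s2.

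Hilpda, a lipase inhibitor gene that is induced by low oxygen and by fatty acids, was in place 8 of the 10 genes by TPM in all 4 ATF3 libraries, ahead of Plin4 and Cidea. By normalized value it was at 26.7, 26.0, 40.4 and 19.3 across Null 1 to 4 and at 45.6, 34.2, 38.3 and 52.9 across ATF3 1 to 4. The groups overlapped through Null 3. Hilpda had a log2 change of 0.62 (SE 0.25, 95% interval 0.06 to 1.18), which was not called at the adjusted threshold. Without Null 3 it was 0.80 and was called, and without Null 4 it was 0.46.

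Within each library, the TPM of G0s2 per TPM of Pnpla2 was 2.41, 0.883, 2.06 and 11.8 across Null 1 to 4 and 0.998, 0.864, 1.92 and 2.42 across ATF3 1 to 4. Null 4 stood far above all other libraries, and the rest overlapped. For the coactivator gene Abhd5, the ratio to Pnpla2 was 0.406, 0.392, 0.439 and 0.982 across Null 1 to 4 and 0.267, 0.261, 0.426 and 0.349 across ATF3 1 to 4. Null 4 was again highest, and ATF3 3 lay within the Null range. The ratio of Hilpda to Pnpla2 was 0.0342 to 0.0834 in Null and 0.0384 to 0.0830 in ATF3. The ratio of inhibitor to lipase transcripts thus overlapped between the groups for both inhibitors.

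**Figure D4:**
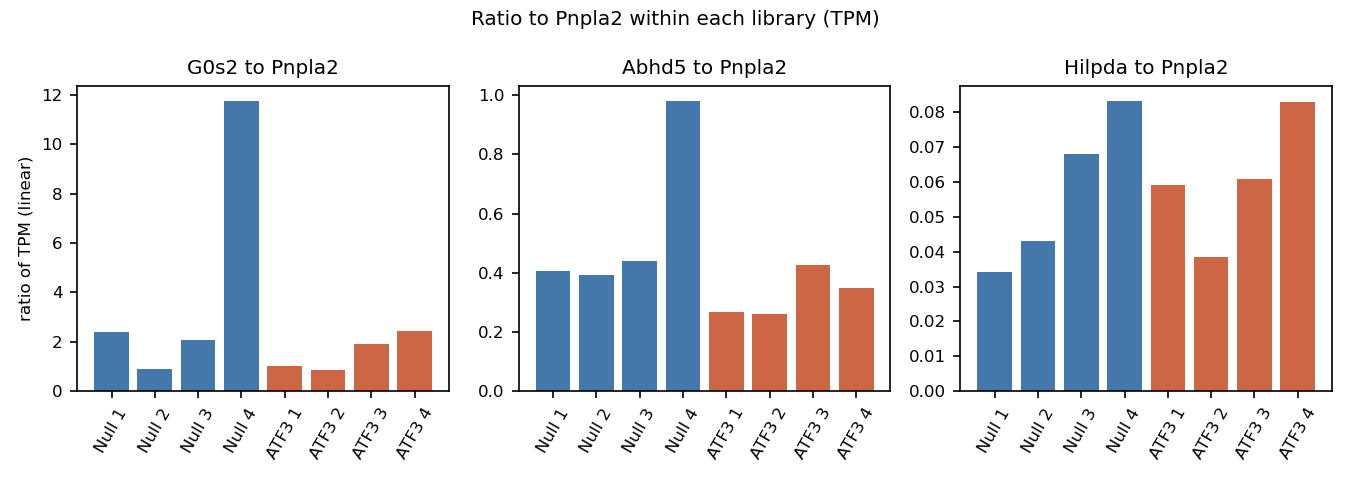
Ratio of the TPM of G0s2, Abhd5 and Hilpda to that of Pnpla2 in each library (linear axes from 0; Null blue, ATF3 red). Null 4 reaches 11.8 for G0s2 and 0.982 for Abhd5, and the other libraries lie at most at 2.42 and 0.439.

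Other genes of triglyceride hydrolysis, from a list by function, changed in both directions. Of 12 listed genes 11 were tested, of which 5 rose and 3 fell, with a median log2 change of 0.28. Counts of genes that rose or fell, here and in the lists below, are of called genes. Over all tested genes 11.4% were called higher and 9.82% lower, and the median was 0.01. Pnpla3, a lipid droplet protein of the same family as Pnpla2, rose by 3.54 (SE 0.30) from a low level, 6.96 ± 3.13 in Null to 86.9 ± 13.0 in ATF3 (SD, n = 4 each). Only 1 Null library reached the filter value of 10, so Pnpla3 passed the filter through the ATF3 libraries and its call is a description only. With a mean of at least 50 as the filter, 4 genes of this list rose. The carboxylesterase genes Ces1d and Ces1g, whose products hydrolyse stored lipid, rose by 1.61 and 0.74, and both have close copies that can share reads. Lipa, the lysosomal acid lipase gene, rose by 1.05, from 5966 ± 1258 to 12230 ± 1326 (SD, n = 4 each). By contrast, Lipe, which encodes hormone-sensitive lipase, fell by 0.65, and Abhd6, a monoacylglycerol lipase gene, fell by 0.87. Abhd5 was at -0.16 (SE 0.12, adjusted p = 0.396, limma) and did not pass.

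Among 15 listed genes of droplet formation and coating other than those above, 14 were tested, 1 rose and 1 fell, and the median log2 change was -0.16. Beside this list and the next, 11.4% of all tested genes were called higher and 9.82% lower. Aifm2, whose product guards against lipid peroxidation and also sits on droplets, rose by 0.91 (adjusted p = 0.00197, limma) and Hsd17b13, an abundant hepatocyte droplet protein gene, fell by 0.80 (adjusted p = 0.00309, limma). The droplet assembly genes Fitm2 and Bscl2, the seipin gene, were at 0.37 and 0.28 and did not pass, and Fitm2 passed without Null 1 (0.46) or ATF3 1 (0.44). Of 16 listed names of triglyceride synthesis genes 14 were found and 12 were tested. Of these, 2 rose and 3 fell, with a median of 0.14. Dgat2, a final enzyme of triglyceride synthesis, fell by 0.86 (SE 0.10, adjusted p = 0.000249, limma), and Dgat1, the other such enzyme, rose by 0.44 (adjusted p = 0.0234, limma). The Dgat1 call was lost without Null 2, Null 3, ATF3 2, ATF3 3 or ATF3 4 (0.37 to 0.44). The phosphatidate phosphatase genes Lpin1 and Lpin2 fell by 1.24 and 0.62, and Lpin3 rose by 0.70. The groups overlapped for Lpin2, and its call was lost without any library but Null 3 (-0.66 to -0.49), and the Lpin3 call without ATF3 2 (0.69) or ATF3 3 (0.65).

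Transcription factors known to drive these genes also moved in both directions. Of 18 regulators tested, 4 rose and 4 fell, with a median log2 change of -0.03, where 11.4% of all tested genes rose and 9.82% fell. Srebf1, the lipogenic regulator, rose by 1.30, Creb3l3, a liver factor known to act on Cidec, rose by 0.64, and Ppargc1a, a coactivator of PPAR-alpha, rose by 0.77. Pparg, which drives Cidec and Plin4 in fat cells and steatotic liver, fell by 1.04 (SE 0.18, adjusted p = 0.00239, limma), from 331 ± 85.6 to 157 ± 14.6 (SD, n = 4 each). Cidec was higher and Plin4 was lower in the libraries in which Pparg was lower. Any genes called between the same groups line up in this way, and a link to Pparg was not tested. Ppargc1b and Cebpa fell by 0.86 and 0.60.

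Of 20 PPAR-alpha target genes outside the 10 genes, all tested, 12 rose and 3 fell, with a median log2 change of 0.52. Over all tested genes 11.4% rose and 9.82% fell, with a median of 0.01. Without ATF3 4, 7 rose. Acot2, an acyl-CoA thioesterase gene with a close copy, rose by 2.69 (adjusted p = 7.09e-05, limma), and Vnn1, Aldh3a2, Ehhadh, Acadm and Cpt1a rose by 0.94, 0.85, 0.75, 0.58 and 0.46. The 3 that fell, named after their values were seen, were Fabp1, Eci2 and Acsl1 at -0.70, -0.44 and -0.38, and only 1 gene of the list was called lower without Null 1 or without any single ATF3 library. Of 8 PPAR-gamma linked genes of fatty liver, 6 were tested, 1 rose and 2 fell, and the median was 0.02. Cd36, a fatty acid uptake gene, rose by 0.58 (adjusted p = 0.0374, limma), a call that was lost without Null 1, Null 2, Null 3, ATF3 2, ATF3 3 or ATF3 4 (0.47 to 0.62). Besides Pparg, Lpl fell by 0.93 (adjusted p = 0.0152, limma), and that call was lost without ATF3 3 (-0.86); for Cd36 and Lpl the groups overlapped. Fabp4, a PPAR-gamma target, was at -0.09 and did not pass, and its sign turned without Null 3 (0.06).

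Genes of the hypoxia response, to which Hilpda belongs, showed no common direction. Of 14 listed names 13 were found and 11 were tested. Of these, 2 rose and 3 fell, with a median log2 change of -0.09, where 11.4% of all tested genes rose and 9.82% fell. Egln3 and Pdk1 rose by 1.19 and 0.67, whereas Kdm3a, Pfkfb3 and Bnip3 fell by 0.95, 0.68 and 0.61. The Pdk1 call was lost without Null 2, ATF3 2, ATF3 3 or ATF3 4 (0.62 to 0.66), that of Pfkfb3 without Null 2, ATF3 3 or ATF3 4 (-0.68 to -0.59), and that of Bnip3 without Null 1, ATF3 1, ATF3 3 or ATF3 4 (-0.64 to -0.52). In these bulk libraries, fewer cells of a type and less RNA per cell cannot be told apart.

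**Figure D5:**
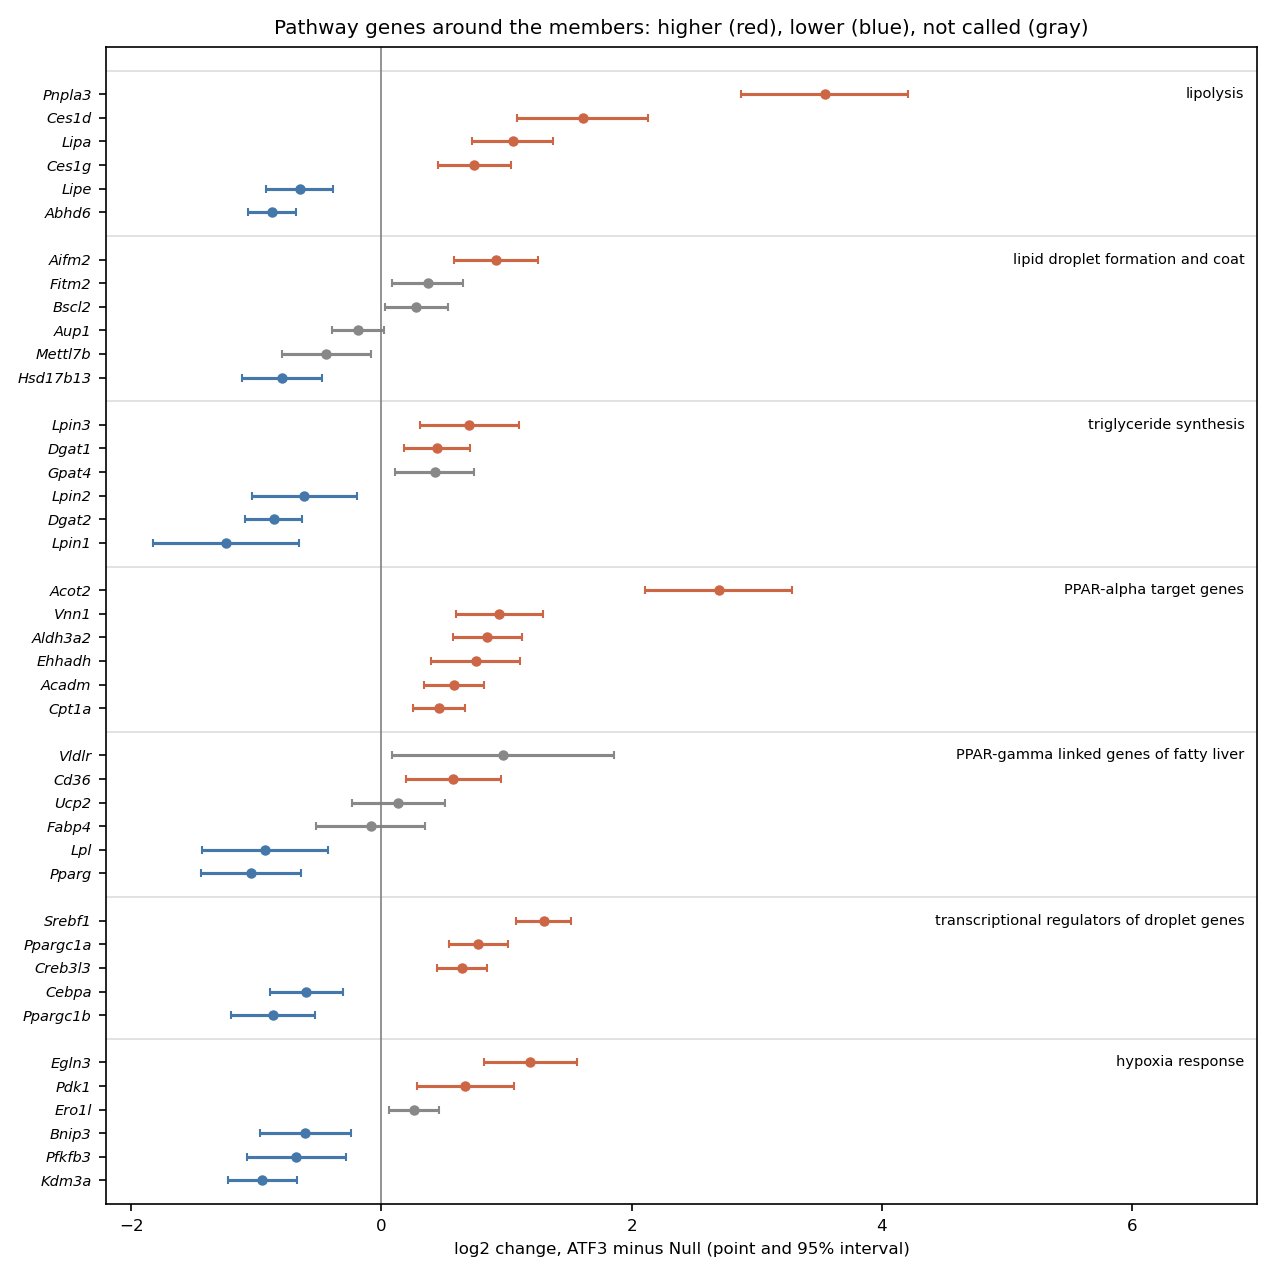
Log2 change, ATF3 minus Null, with 95% intervals, of up to 6 genes with the smallest p in each of the 7 pathway lists (red called higher, blue called lower, gray not called; Pparg is drawn once). Pnpla3 at 3.54 and Acot2 at 2.69 lie farthest to the right, and Lpin1 at -1.24 and Pparg at -1.04 farthest to the left.

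The profile over the 8 libraries nearest to that of Cidec was measured as the root mean square difference of log2 values, with each gene set to its Null mean, among tested genes with a mean of at least 100. The 5 nearest genes were Ntrk2 (0.28), Apoa4 (0.68), E030018B13Rik (0.83), Tmeff2 (0.94) and Cntnap1 (1.05). Tmeff2 was at 0 to 7.92 in Null libraries and E030018B13Rik at 5.74 to 14.6, so both passed the filter through the ATF3 libraries. All of the 5 but Apoa4 were under 100 in every Null library and met that mean through the ATF3 libraries. Their nearness is a description only. Ntrk2, a neurotrophin receptor gene, was at 23.8, 36.8, 56.3 and 24.6 across Null 1 to 4 and at 2073, 2401, 2496 and 2336 across ATF3 1 to 4. Apoa4, an apolipoprotein gene, was at 1890, 2021, 1893 and 1866 in Null and at 44464, 68789, 99781 and 79925 in ATF3. In Cidec, Ntrk2 and Apoa4, ATF3 1 was the lowest and ATF3 3 the highest of the ATF3 libraries, which did not hold for E030018B13Rik, Tmeff2 or Cntnap1. This nearness rests mostly on the size of the difference between the groups.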

How the data were processed

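Total RNA from mouse liver was sequenced from stranded total RNA libraries, per the labels' protocols. Bowtie2 and mm10 come from the submitters' processing notes and Illumina BaseSpace software from the design text; no source used here gives the counting tool, its use of strand or the annotation. One deposited table holds a signal: estimated reads per gene that the authors divided by a factor, by its name a DESeq scaling. Only 14.1 to 30.1% of values under 20 were whole multiples (tolerance 0.01) of the most frequent low value of a library, so whole reads were not recovered and no count model was run. The other deposited table holds TPM by the authors, in which 26 rows named as dates were left out. Values above are from the first table unless TPM is named.

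limma 3.58.1 (R 4.3.3) was fitted to log2(value + 1) with a term for group (eBayes with trend, two-sided, Benjamini-Hochberg over 13301 genes, threshold 0.05), which understates changes of low genes. The filter was at least 10 in at least 4 libraries. The procedure was tested on simulated data. The 10 genes, the lists and the settings were chosen with earlier results of these data known. Named are the 10 genes, Atf3, up to 6 genes per list with the smallest p, marker genes and the 5 profiles nearest to Cidec; Abhd5, Nop9 and genes said to be chosen after their values were seen are additions. Library numbers follow accession order within a group and pair nothing. At most 10 tested genes had the same value in any pair of libraries. Coordinates and overlaps come from GENCODE vM21, which may differ from the annotation used by the authors. Marker sums were compared by exact permutation over 70 assignments. Python 3.11.15, numpy 2.4.6, pandas 2.3.3, scipy 1.17.1 and matplotlib 3.10.9 were used.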

Additional observations from a re-analysis of the deposited data

Results flagged for a closer look

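Among 142 groups of 4 libraries examined, 14 held a library far from the other 3. The cutoff marks about 1 in 20 groups by chance where groups are independent and values normal. Shares and ratios here reuse the same genes, so the 14 cannot be set against that rate. Null 4 was the library apart in 5 of the 14 groups and ATF3 1 in 4. The cause was not tested for any of them. For Plin4, Null 4 lay at 462 against 251 to 256 in the other Null libraries, and ATF3 4 at 153 against 94.7 to 102 in the other ATF3 libraries. Cidea was at 8.54 in Null 2 and at most 1.12 in the other Null libraries, and its share of the CIDE TPM there was 0.256%. The Cidec share was 0.724% in Null 1 and 1.47 to 1.57% in the other Null libraries. Null 4 had a G0s2 to Pnpla2 ratio of 11.8 against at most 2.41 and an Abhd5 to Pnpla2 ratio of 0.982 against at most 0.439. Among the pathway genes, Lipa was at 7838 in Null 4, Fitm2 at 1208 in Null 1, Acadm at 7737 in ATF3 1 and Lpl at 505 in ATF3 1. The Kupffer cell and macrophage marker sum was 12542 in Null 4 against at most 8642 in the other Null libraries, and 14125 in ATF3 1 against at most 10128 in the other ATF3 libraries. The lymphocyte marker sum was 890.05 in ATF3 1 against at most 647 in the rest of its group.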

How the results depend on the processing

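No paired analysis was possible because the labels give the groups no shared replicate numbers. Cidec was called higher under all 18 alternatives, with log2 changes from 5.17 to 6.21. The count of genes higher in ATF3, 1513, became 440 with deposited TPM and 2271 with library weights, and 1003 to 1960 on leaving out 1 library. Genes lower, 1306, became 76, 2130 and 846 to 1774. With deposited TPM, 1 of the 10 genes was called higher and 0 lower, and 4 pathway genes were called higher and 0 lower. On the same TPM rescaled by the median of ratios, 3 of the 10 genes were called higher and 1 lower. Over all genes, 1551 were then higher and 1277 lower. On leaving out 1 library, the pathway genes called higher, 27, ranged from 17 (without ATF3 4) to 30, and those called lower, 18, from 11 (without ATF3 3) to 18. Normalized values in place of TPM moved the difference in share, ATF3 minus Null, from 40.3 to 51.1 percentage points for Cidec, from -40.2 to -51.0 for Cideb and from -0.50 to -1.67 for Plin4. With deposited TPM the sign turned for G0s2 (0.59), Abhd6 (0.071), Lipe (0.20), Hsd17b13 (0.21), Mettl7b (0.56), Aup1 (0.79), Dgat2 (0.14), Lpin2 (0.37), Fabp4 (0.80), Ppargc1b (0.028), Cebpa (0.40), Pfkfb3 (0.10) and Bnip3 (0.39), while the median of all genes moved to 0.68. With library weights it turned for G0s2 (0.30) and Ucp2 (-0.069). On leaving out 1 library, Plin5 ranged from -0.013 to 0.30 and Fabp4 from -0.28 to 0.065. For the 42 named genes outside the 10, 673 of 755 alternative values kept their direction and call. What caused the changes between settings was not tested. With 4 libraries per group and no recovered reads, the depth behind low values such as those of Cidea is unknown.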
